A study of Homo sapiens with 132 samples.

Results

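MKN1 cells, an established human gastric carcinoma line, were compared after 24 h with afatinib and after 24 h with cetuximab, 2 drugs that act on the same receptor family in different ways. The rule took the libraries labelled MKN1, 24 h and Afa (afatinib alone, 0.5 µM) and those labelled MKN1, 24 h and Cet (cetuximab alone, 1 µg/ml), without the groups that also received trastuzumab or EGF. This gave 6 of the 132 libraries of the series, 3 replicates for each drug, and the replicate number was taken as a pair. All MKN1 cells were kept in medium with fetal calf serum. Afatinib was dissolved in DMSO and cetuximab was not. None of the 132 libraries is labelled as treated with DMSO alone, so that afatinib and its solvent cannot be told apart. Other libraries of the same line, time or drugs were used for reference. These were MKN1 at 24 h without treatment, with EGF (5 ng/ml) or with trastuzumab plus afatinib (Tra+Afa, 5 µg/ml and 0.5 µM). Also used were MKN1 at 4 h and Hs746T, another established gastric carcinoma line, at 24 h, each with afatinib or cetuximab alone. The fits held all other libraries of these lines at 4 h and 24 h as well. Their treatments were the same, with trastuzumab alone (5 µg/ml) and EGF plus cetuximab (5 ng/ml and 1 µg/ml) in addition. Each of these groups had 3 libraries. Nothing in the labels says that replicates came from separate cultures, so the p-values below measure the spread between these libraries, which may be technical.

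EGFR belongs to the ERBB family of receptor tyrosine kinases, which also holds ERBB2 (HER2), ERBB3 and ERBB4. Ligand-bound receptors pair up, phosphorylate each other and switch on the RAS-ERK pathway, which drives growth genes and its own inhibitors, and the PI3K-AKT pathway, which holds the FOXO transcription factors out of the nucleus. Cetuximab is an antibody that covers the ligand-binding site of EGFR on the cell surface. Afatinib is a small molecule that binds covalently inside the kinase domain of EGFR, HER2 and ERBB4. The comparison therefore asks how the transcripts of a line differ when kinase activity is blocked from inside and when ligand binding to EGFR is blocked from outside.

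The 6 libraries held between 42367058 and 55323061 counts assigned to genes. A level of 0 therefore allows up to 0.0542 to 0.0708 CPM when scaled by library size alone, for counting error only. The CPM values of genes (counts scaled to library size and TMM factor) also used TMM factors, from 1.0582 to 1.1776 in these libraries. After removal of genes with low counts 19815 genes were tested over all 42 MKN1 libraries. The summed level of 8 gastric epithelial markers lay between 15300 and 18600 CPM with afatinib and between 15100 and 19400 CPM with cetuximab. The 2 of 6 leukocyte markers that were measured summed to 5.6 to 9.16 CPM, the 5 of 6 endothelial ones to 11.5 to 24.3 CPM and the 6 fibroblast ones to 266 to 361 CPM, of which LUM gave 234 to 319 CPM.

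Libraries of replicate 2 did not all resemble each other. In the cetuximab library of replicate 2 the 77 genes of ribosomal proteins took 4.05% of the counts and in the Tra+Afa library of replicate 2 they took 4.11%. In the afatinib library of replicate 2 they took 7.47%, and in the other replicate 2 libraries at 24 h between 6.9% and 9.68%. In replicates 1 and 3 the share was 4.45% to 4.8% with afatinib and 4.63% to 5.07% with cetuximab. The difference in pair 2 went with gene length. Among protein-coding genes with a mean level above 1 log2 CPM, the 2332 with the shortest exons had a median difference of 0.34 (log2, afatinib minus cetuximab) in pair 2, and of -0.07 and -0.06 in pairs 1 and 3. The 2329 with the longest exons had -0.20 in pair 2, and -0.01 and -0.02 in the other pairs. Genes that passed the test as lower were longer (median 6535 bases of exon, 420 genes) than all genes of this kind (5325 bases, 11650 genes), and genes that passed as higher were shorter (4610 bases, 205 genes). The part of this length difference in the results was not tested, and counts are therefore given with and without the libraries that stand apart.

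**Figure D1:**
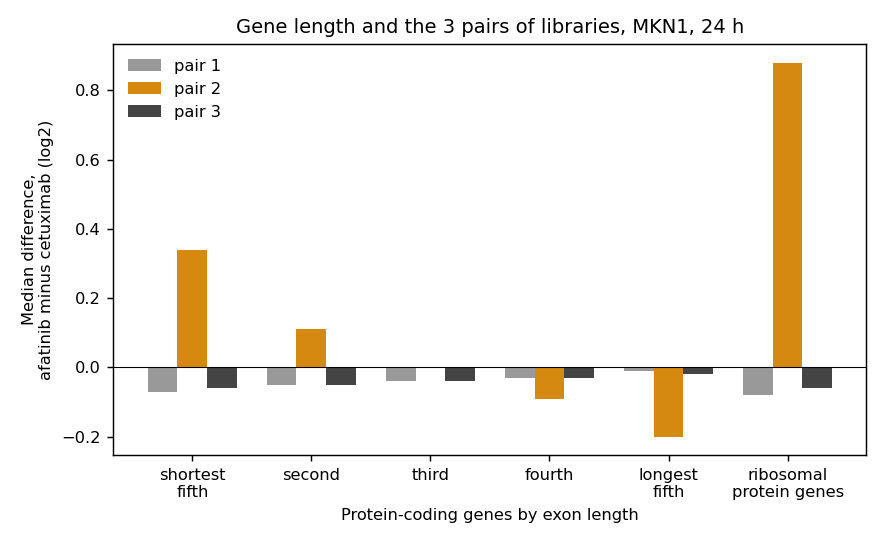
Median log2 difference between afatinib and cetuximab (y axis) in pairs 1, 2 and 3 of MKN1 libraries at 24 h, for 5 groups of protein-coding genes of about equal size ordered by exon length and for the 77 genes of ribosomal proteins (x axis). Pair 2 ran from 0.34 in the shortest group to -0.20 in the longest and was at 0.88 for ribosomal proteins, while pairs 1 and 3 stayed between -0.08 and -0.01.

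At 24 h the level of 239 genes was higher and that of 458 genes lower with afatinib than with cetuximab, at an adjusted p below 0.05 in edgeR's quasi-likelihood test with the replicate number as a block. These were 1.21% and 2.31% of the genes tested, and 2 and 13 genes without the block. The differences were small, with a median of 0.34 among the higher and -0.31 among the lower genes on the log2 scale. Only 2 genes also rose by more than 1 on the log2 scale (0.0101% of genes tested) and 13 fell by more than 1 (0.0656%), the criterion by which the study called a gene regulated. The 2 were GPNMB and HSPB7, a small heat shock protein gene, and HSPB7 was named after its values were seen. Among the 697 genes that passed, 98.6% differed in the same direction in all 3 pairs and 65.4% had CPM ranges that did not overlap between the drugs. Among all genes tested these shares were 34.3% and 11.3%. The 697 were selected with these same pairs, so that their shares describe the selected genes and are no separate test of them.

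How many genes passed depended on the use of the pairs. The 15 genes that passed without the block were all among the 697, and 1457 genes had an unadjusted p below 0.05, against 4056 with the block. In a fit of the 6 libraries alone, with the block, no gene passed and 1598 had an unadjusted p below 0.05. Leaving out replicate 1 left 10 higher and 42 lower genes, leaving out replicate 2 left 162 and 547, and leaving out replicate 3 left 72 and 119. Without the cetuximab and the Tra+Afa library of replicate 2, 116 genes were higher and 274 lower. The 697 genes kept their direction in each of these fits, in the fit of 6 libraries for the 696 that it held. They were selected with these same libraries, so that a kept direction largely follows from the selection and is no separate test. The share of lower genes among those that passed was 56.4% when libraries were scaled by size alone and 49.1% when only genes with at least 10 counts in every library were tested.

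**Figure D2:**
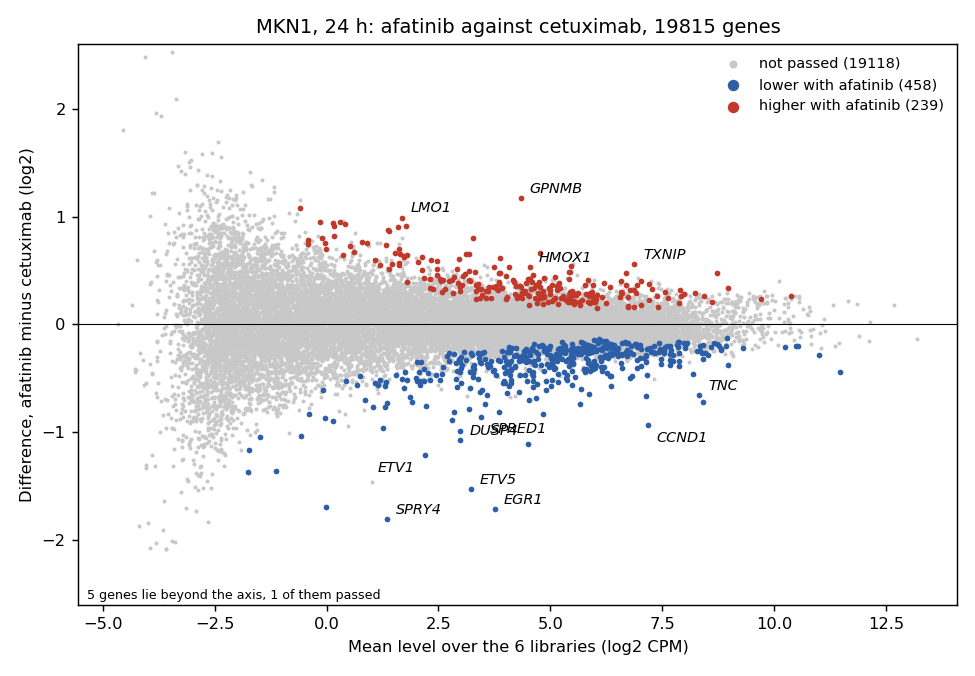
Log2 difference between afatinib and cetuximab at 24 h (y axis) against the mean level over the 6 libraries in log2 CPM (x axis) for the 19815 genes tested, with genes that passed the test in blue (458 lower) and red (239 higher). Among genes that passed with a mean above 1 log2 CPM, SPRY4, EGR1 and ETV5 lie lowest, between -1.81 and -1.53, and GPNMB lies highest, at 1.17. Genes that did not pass reach higher values, and 5 genes lie beyond the axis, of which LINC00311 passed.

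Of the 13 genes that fell by more than 1 on the log2 scale, 6 were on the list of genes that the ERK pathway switches on. Of the 28 measured members of a list of 31 ERK target and feedback genes, 12 were lower with afatinib, none was higher, and 16 did not pass, with a median difference of -0.59 against -0.01 over all genes tested. Of all genes tested 2.31% were lower. For 11 of the 12, and for 18 of the 28, the CPM ranges of the drugs did not overlap. This share was 65.4% among all genes that passed and 11.3% among all genes tested. The 12 were selected in these same libraries, so that separate ranges partly follow from the selection. Of the 28, 27 lay below 0, as did 10165 of the 19815 genes tested. Without the block 3 of the 28 passed, without replicates 1, 2 and 3 in turn there were 7, 8 and 9, and without the cetuximab and the Tra+Afa library of replicate 2 there were 11.

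ETV5 and ETV1 encode ETS transcription factors of the PEA3 group, which ERK activity induces. The level of ETV5 (ENSG00000244405, GRCh38 chromosome 3, 186046308 to 186110318, minus strand) was 5.22, 5.2 and 6.06 CPM in afatinib replicates 1, 2 and 3, and 12.9, 14.4 and 21 CPM in the cetuximab replicates. Every afatinib library lay below every cetuximab library, and the difference was -1.53 ± 0.16 (log2, SE, adjusted p = 4.8e-07, edgeR). ETV5 also passed without the block (adjusted p = 0.0006, edgeR). ETV1 had 3.46, 2.35 and 3.29 CPM with afatinib and 5.09, 5.87 and 11.1 CPM with cetuximab, a difference of -1.21 ± 0.22 (adjusted p = 0.0012, edgeR).

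EGR1 and EGR4 are immediate early genes for zinc finger transcription factors. EGR1 (ENSG00000120738, chromosome 5, 138465490 to 138469315, plus strand) had 7.84, 6.72 and 7.78 CPM with afatinib and 21.7, 20.1 and 33.4 CPM with cetuximab. The groups were separate and differed by -1.71 ± 0.31 on the log2 scale (adjusted p = 0.0014, edgeR). Without replicate 1 the adjusted p was 0.057. EGR4 was low in both groups, between 0.246 and 0.265 CPM with afatinib and between 0.577 and 0.786 CPM with cetuximab, and fell by 1.36 (adjusted p = 0.019, edgeR). FOS, which encodes an AP-1 subunit, differed by less, -0.42 ± 0.12 (adjusted p = 0.037, edgeR), with 14.5, 17.9 and 13.1 CPM against 20, 20.6 and 20 CPM.

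The promoter of EGR1 is shown because EGR1 is a textbook target of serum response factor, which binds CArG boxes and is switched on through ERK and ETS partners. The stretch below, from RefSeq on GRCh38.p14, plus strand, chr5:138465359-138465419, covers the bases from 120 to 60 before the RefSeq start of the gene, and capitals mark its 2 matches to the CArG box.
EGR1: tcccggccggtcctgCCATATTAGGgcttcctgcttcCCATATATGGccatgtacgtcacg
Of the 9 genes of the ERK list that were lower and had a promoter in the RefSeq table, EGR1 was the only member with a CArG box in the window from 250 bases before to 50 bases after the start. Among all genes tested with such a window (12179) 1.07% held this box, and among the genes that were lower (331) and higher (172) the shares were 1.81% and 1.74%. The ETS motif CCGGAAG was found in none of the 9 windows and in 16.1% of all windows tested. It stood in 10.9% of the windows of lower genes and in 5.23% of those of higher genes. The AP-1 motif TGANTCA stood in 4.53% of the lower, 12.8% of the higher and 5.35% of all windows tested. The E2F motif TTTCCCGC stood in 3.32% of the lower, 1.74% of the higher and 2.46% of all windows tested, and the TEAD motif GGAATG in 13.3%, 11.6% and 11.4%. The CLEAR motif TCACGTGA stood in 2.11%, 2.33% and 1.59%, and the antioxidant response element TGACNNNGCA in 3.02%, 3.49% and 3.06%. Both strands were searched. A match is only a match of letters, and no binding was measured.

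The SPRY and SPRED genes encode inhibitors of RAS-ERK signalling that the pathway itself induces, and DUSP4 and DUSP6 encode phosphatases that act on ERK-type kinases. SPRY4 (ENSG00000187678, chromosome 5, 142310427 to 142326455, minus strand) had the largest fall among genes that passed with a mean level above 1 log2 CPM. Its level was 1.43, 1.42 and 1.16 CPM with afatinib and 3.72, 4.62 and 6 CPM with cetuximab, -1.81 ± 0.42 on the log2 scale (adjusted p = 0.012, edgeR). The groups did not overlap, but the adjusted p was 0.115 without replicate 2 and 0.068 without the cetuximab and the Tra+Afa library of replicate 2. SPRED1 showed little spread, with 8.38, 8.02 and 7.88 CPM against 13.9, 14.1 and 16.2 CPM, and fell by 0.85 ± 0.13 on the log2 scale (adjusted p = 0.00017, edgeR).

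SPRED2 had 20.4, 19.4 and 20.3 CPM with afatinib and 31.9, 30.3 and 34.7 CPM with cetuximab, -0.69 ± 0.11 on the log2 scale (adjusted p = 0.00033, edgeR). SPRED1 and SPRED2 passed also without the block (adjusted p = 0.049 and 0.027, edgeR). SPRY1 was the weakest of the 12, with overlapping ranges and a difference of -0.45 ± 0.13 (adjusted p = 0.049, edgeR). DUSP4 was at 5.21, 5.92 and 5.23 CPM with afatinib and at 9.98, 12.2 and 12.5 CPM with cetuximab, -1.07 ± 0.23 on the log2 scale (adjusted p = 0.0058, edgeR). DUSP6 was separated in the same way, with 1.22, 1.15 and 1.2 CPM against 2.87, 2.71 and 4.48 CPM, but its difference of -1.47 ± 0.44 did not pass (adjusted p = 0.053, edgeR).

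CCND1, which encodes cyclin D1, the partner of CDK4 and CDK6 in G1, was clearly separated between the drugs. Its level (ENSG00000110092, chromosome 11, 69641087 to 69654474, plus strand) was 129, 113 and 76.4 CPM with afatinib and 221, 205 and 182 CPM with cetuximab. All 3 afatinib libraries were below all 3 cetuximab libraries, a difference of -0.94 ± 0.16 on the log2 scale (adjusted p = 0.0008, edgeR). EPHA2, an ephrin receptor tyrosine kinase, fell by 0.66 ± 0.12 (adjusted p = 0.0022, edgeR) from 157, 174 and 204 CPM with cetuximab to 101, 117 and 116 CPM. It was also 1 of 3 members that were lower on a list of 22 other receptor tyrosine kinases, together with ROR1 (-0.51) and FGFR3 (-0.24). None of that list was higher, and 2.31% of all genes tested were lower.

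Most of the ERK list was lower with either drug than without treatment. Compared with the untreated libraries 26 of the 28 members were lower and 1 was higher with afatinib, with a median difference of -1.76. With cetuximab 25 were lower and 1 was higher, with a median of -1.04. Over all genes tested 22% were lower and 20.2% higher with afatinib than untreated, and 15.7% lower and 14.6% higher with cetuximab. These comparisons share the untreated libraries with each other and the treated ones with the direct comparison, so that their values are only placed side by side. EGR1, for example, had 232, 113 and 282 CPM without treatment, and its levels were 3.04 lower on the log2 scale with cetuximab and 4.75 lower with afatinib. For ETV5 the untreated libraries had 26.2, 28.7 and 53.1 CPM, and for CCND1 361, 338 and 515 CPM.

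**Figure D3:**
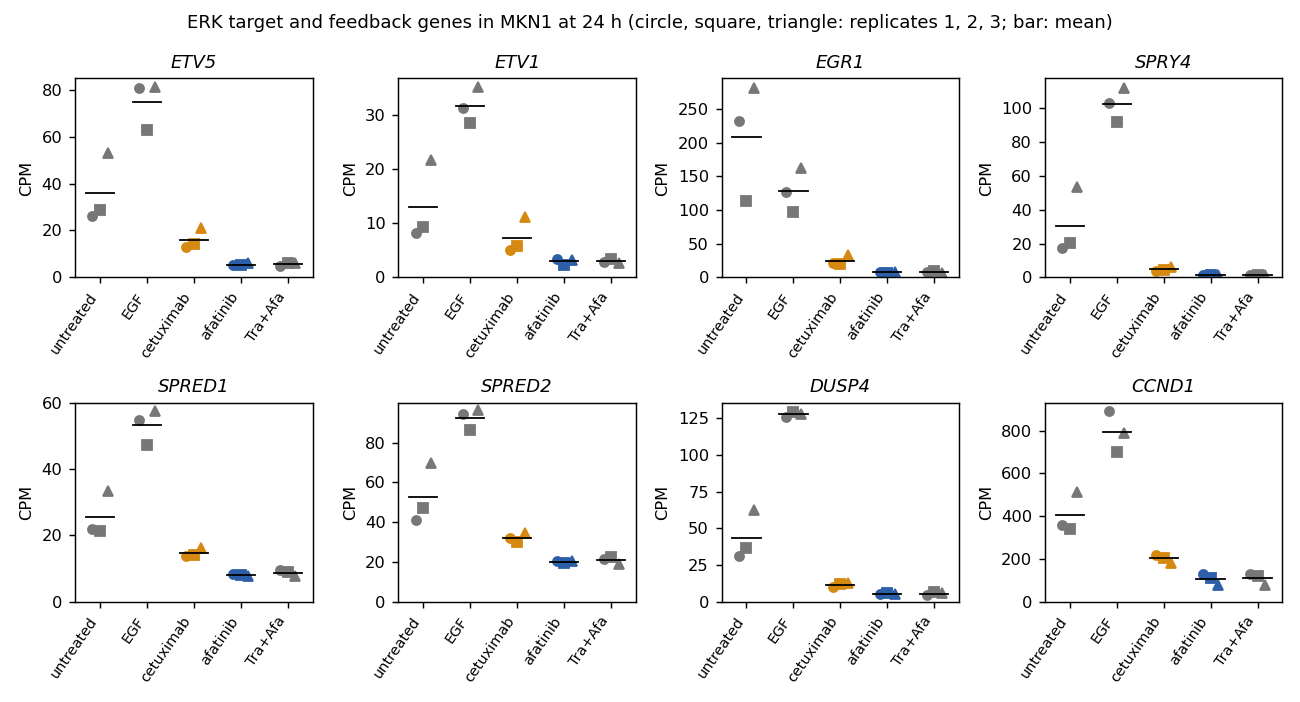
Level in CPM (y axes, linear, from 0) of 8 ERK target and feedback genes in the MKN1 libraries at 24 h, by treatment (x axes), with 1 symbol for each replicate and a bar at the mean. For each gene the 3 afatinib libraries lie below the 3 cetuximab libraries, for ETV5 at 5.2 to 6.06 against 12.9 to 21 CPM.

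Of the 4 ERBB receptors only EGFR passed, where 2.31% of all genes tested were lower. It was lower with afatinib, at 263, 199 and 172 CPM against 317, 274 and 208 CPM with cetuximab. The ranges overlapped, each pair differed in the same direction, and the difference was -0.34 ± 0.08 (log2, SE, adjusted p = 0.021, edgeR). EGFR no longer passed without replicate 1 (adjusted p = 0.197) or without replicate 2 (adjusted p = 0.0738, edgeR). ERBB2 did not pass (-0.19 ± 0.14, adjusted p = 0.43, edgeR), nor did ERBB3 (-0.07 ± 0.10, adjusted p = 0.75, edgeR). None of 11 ERBB ligands passed. The values of AREG, amphiregulin, were 0.918, 0.984 and 1 CPM against 1.45, 1.36 and 2.49 CPM, and those of EREG, epiregulin, 8.44, 5.9 and 6.62 CPM against 12.4, 9.22 and 11.8 CPM. For both ligands the ranges were separate and the differences of -0.84 ± 0.35 and -0.66 ± 0.28 had an adjusted p of 0.17 (edgeR).

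Few cell cycle genes passed, and those of the replication, S phase and G2/M lists that did were lower with afatinib. Of 33 DNA replication genes 7 were lower and none was higher, with a median difference of -0.09, and 31 lay below 0. Of 41 measured S phase genes 6 were lower, with a median of -0.14 and 40 below 0, and of 51 measured G2/M genes 1 (TMPO) was lower, with a median of -0.12, where 2.31% of all genes tested were lower. Without replicate 1 the number of lower members was 0, 1 and 0 in these lists, without replicate 2 it was 11, 14 and 7, and without replicate 3 it was 0, 2 and 0. Without the cetuximab and the Tra+Afa library of replicate 2 it was 5, 6 and 0, and without the block no member of the 3 lists passed. Ranges of CDC45, a subunit of the replicative helicase, were 20.6 to 26.2 CPM with afatinib and 27.1 to 28.8 CPM with cetuximab, -0.26 ± 0.06 on the log2 scale (adjusted p = 0.021, edgeR). POLE, the catalytic subunit of DNA polymerase epsilon, differed by -0.28 and MCM10, a replication initiation factor, by -0.29. UHRF1, which recruits the maintenance DNA methyltransferase, showed the largest difference among the S phase genes that passed, with 43, 30.6 and 31.3 CPM against 54.9, 48 and 46.3 CPM and -0.52 ± 0.10 (adjusted p = 0.0022, edgeR).

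Of 18 measured G1 control genes 3 (CCND1, CCNE2 and E2F3) were lower and 1 (CDKN1A) was higher, against 2.31% and 1.21% of all genes. The other 14 did not pass, and the list had a median of -0.11. None of the 18 passed without the block. CCNE2, cyclin E2, had 11.4, 11.4 and 10.9 CPM with afatinib and 14.7, 15.2 and 15.7 CPM with cetuximab, -0.43 ± 0.07 on the log2 scale (adjusted p = 0.00029, edgeR). CDKN1A, which encodes the CDK inhibitor p21, was higher, at 37.1, 45.8 and 43.1 CPM against 31.4, 28.3 and 37.1 CPM, 0.38 ± 0.08 (adjusted p = 0.0073, edgeR). The lowest afatinib and the highest cetuximab library of CDKN1A were both at 37.1 CPM, and its adjusted p was 0.0952 without replicate 1 and 0.115 without replicate 2 (edgeR). Among p53 target genes, of which 18 were measured, CDKN1A was the only higher member and MDM2, the ubiquitin ligase of p53, the only lower member (-0.53).

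Of 16 YAP target genes 4 were lower, where 2.31% of all genes tested were, and none was higher. The list had a median of -0.20 and 15 members below 0. None passed without the block, and leaving out replicates 1, 2 and 3 in turn left 0, 3 and 2. CTGF, a matricellular growth factor gene, had 18.9, 21.1 and 14.1 CPM with afatinib and 31.2, 30.2 and 26.4 CPM with cetuximab, -0.70 ± 0.17 (adjusted p = 0.017, edgeR). F3, which encodes tissue factor, had 47, 49.6 and 44 CPM against 72.3, 78.1 and 69.6 CPM, -0.64 ± 0.14 (adjusted p = 0.0073, edgeR). F3 was also the only member that passed among 14 motility genes, whose median was -0.26. The study drew this list from genes regulated by afatinib at 4 h in this series, and the 24 h libraries compared here were not used for it. The other lower YAP targets were CRIM1 (-0.38) and LATS2 (-0.18), whose ranges overlapped.

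**Figure D4:**
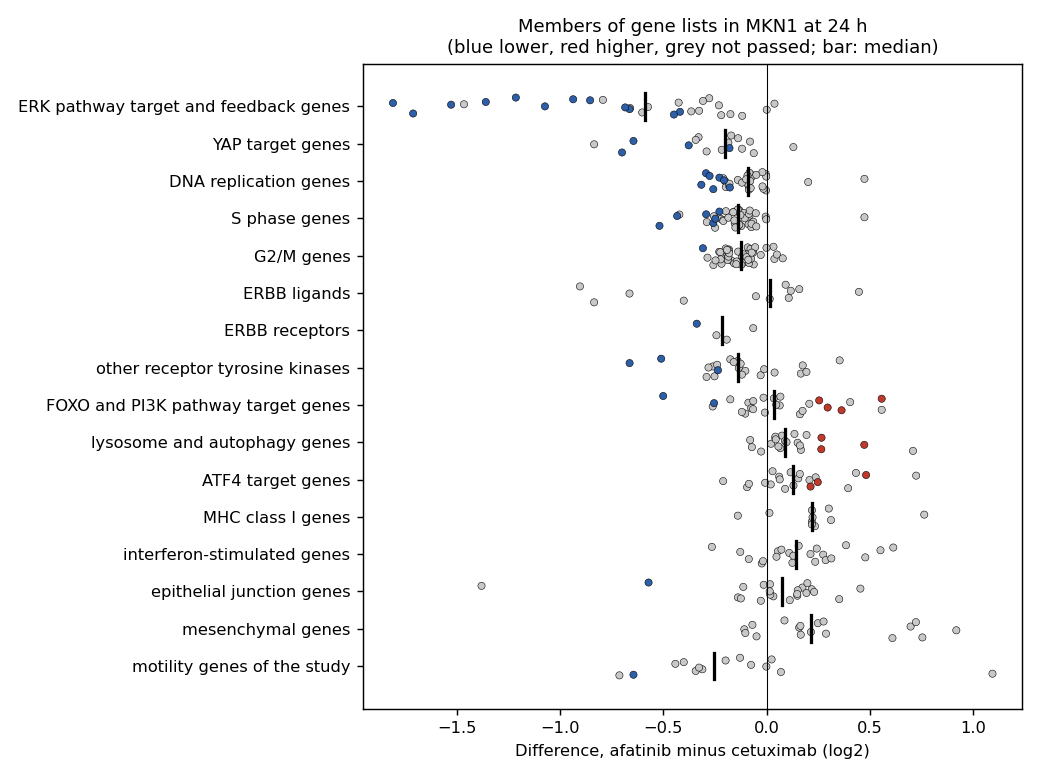
Log2 difference between afatinib and cetuximab in MKN1 at 24 h (x axis) for each measured member of 16 gene lists (y axis), coloured by whether the member was lower, higher or did not pass, with a bar at the median. The ERK list has its median at -0.59 and the DNA replication and S phase lists at -0.09 and -0.14.

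The 3 genes with the smallest p were not members of these lists. TNC, which encodes the matrix glycoprotein tenascin C, had 372, 237 and 190 CPM with afatinib and 535, 379 and 324 CPM with cetuximab. The ranges overlapped, and the differences within pairs 1, 2 and 3 were -0.53, -0.68 and -0.77 on the log2 scale. The fitted difference was -0.66 ± 0.05 with the block (adjusted p = 1.2e-09, edgeR) and the adjusted p was 0.71 without it. IVNS1ABP, a gene for a kelch protein, had 266, 269 and 257 CPM with afatinib against 402, 471 and 433 CPM with cetuximab. The ranges were far apart, and the difference of -0.72 ± 0.06 passed with the block and without it (adjusted p = 1.7e-09 and 0.0058, edgeR). SLC1A3, a glutamate transporter gene, resembled TNC, with 30.3, 38.9 and 50.3 CPM against 47.5, 69.1 and 84.3 CPM, -0.74 ± 0.06 (adjusted p = 1.7e-09, edgeR; 0.49 without the block).

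For TNC and SLC1A3 the mean untreated level lay between those of the drugs. TNC was 0.49 higher with cetuximab than untreated and 0.17 lower with afatinib than untreated, on the log2 scale. SLC1A3 was 0.25 higher with cetuximab and 0.49 lower with afatinib. For IVNS1ABP cetuximab differed by 0.02 from untreated cells and afatinib by -0.70, and for TGFB2, the gene for transforming growth factor beta 2, these differences were -0.01 and -0.62. TGFB2 had 28.5, 22.7 and 21.8 CPM with afatinib and 42.1, 37 and 32.1 CPM with cetuximab, -0.61 ± 0.08 (adjusted p = 7.4e-06, edgeR). WNT5A, a ligand of non-canonical Wnt signalling, was 0.52 lower and CLDN1, a tight junction claudin gene, 0.57 lower with afatinib than with cetuximab (adjusted p = 4.7e-06 and 2.7e-05, edgeR). Beside WNT5A, 2 other members of 17 measured Wnt pathway genes were lower, APCDD1 (-0.39) and NKD2 (-0.33), and none was higher. Lower genes made up 2.31% of all genes tested.

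Beyond the ERK list, the 15 largest falls among genes above 1 log2 CPM held MYEOV, a gene amplified with CCND1 in some tumours, at 14.5, 21.3 and 11.3 CPM against 32.1, 36.7 and 32 CPM (-1.11 ± 0.15, adjusted p = 2.7e-05, edgeR). IL7R, the interleukin 7 receptor (-0.89), SGK1, a kinase of the AGC family (-0.83), CYP26B1, a retinoic acid hydroxylase (-0.81), and UBASH3B, a tyrosine phosphatase gene (-0.79), followed. The others were LINC01910 (-0.96), AC010735.2 (-0.81) and ENSG00000224460 (-0.99), which has no name in GENCODE 29. LINC00311, named after its values were seen, had 0 counts in all 3 afatinib libraries and 0.0598 to 0.112 CPM with cetuximab, which is about the limit that 0 counts allow, so that no fold is given. BCL2, which encodes an inhibitor of apoptosis, was the only member that passed among 14 measured genes of its family, with 4.01, 3.67 and 3.49 CPM against 5.3, 5.31 and 5.5 CPM (-0.53 ± 0.12, adjusted p = 0.012, edgeR). Of all genes tested 2.31% were lower.

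Among the higher genes GPNMB, a lysosomal and melanosomal membrane glycoprotein gene, had the largest fitted rise. Its level (ENSG00000136235, chromosome 7, 23235967 to 23275108, plus strand) was 28.7, 29.7 and 32.4 CPM with afatinib and 14.6, 11.5 and 14.5 CPM with cetuximab. All afatinib libraries were above all cetuximab libraries, 1.17 ± 0.14 on the log2 scale (adjusted p = 3.7e-06, edgeR; 0.01 without the block). Untreated libraries had 6.87, 6.27 and 3.52 CPM. Of 21 measured lysosome and autophagy genes 3 were higher, where 1.21% of all genes tested were, and none was lower. The list had a median of 0.09, with 18 members above 0. SQSTM1, the autophagy receptor p62, had 473, 527 and 503 CPM against 394, 299 and 390 CPM, 0.47 ± 0.09 (adjusted p = 0.0022, edgeR). The gap of SQSTM1 was also widest in pair 2, where differences went with gene length. The genes of the lysosomal proteases CTSL and CTSB were each 0.26 higher. Without the block no member of the list passed, and leaving out replicates 1, 2 and 3 in turn left 0, 1 and 1.

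Of 25 measured members of the list of FOXO and PI3K pathway genes, 4 were higher and 2 lower. Of all genes tested 1.21% were higher and 2.31% lower. The other 19 members did not pass, and the list had a median of 0.03. Without the block none passed, leaving out replicates 1, 2 and 3 in turn left 0, 2 and 1 higher and 0, 2 and 1 lower members, and without the cetuximab and the Tra+Afa library of replicate 2 there were 2 and 2. TXNIP, which encodes a thioredoxin-binding protein that limits glucose uptake, had 181, 112 and 142 CPM with afatinib and 127, 74 and 96.1 CPM with cetuximab. Its ranges overlapped but every pair differed in the same direction, 0.56 ± 0.11 (adjusted p = 0.0038, edgeR; 0.47 without the block). PDK4, an inhibitory kinase of pyruvate dehydrogenase, FBXO32, a ubiquitin ligase subunit, and CAT, catalase, were higher by 0.36, 0.29 and 0.25. IRS1, the insulin receptor substrate, was lower, with 99.5, 87.7 and 88.2 CPM against 132, 126 and 133 CPM (-0.50 ± 0.10, adjusted p = 0.0047, edgeR), and KLF6 was 0.25 lower.

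The stretch from 150 to 90 bases before the start of TXNIP is given because TXNIP was the member of this list with the smallest p. It comes from RefSeq on GRCh38.p14, minus strand, chr1:145996669-145996729, and capitals mark a match to the FOXO motif TGTTTAC, here on the opposite strand.
TXNIP: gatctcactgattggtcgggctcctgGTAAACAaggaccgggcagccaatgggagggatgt
This motif was found in 4.65% of the windows of higher genes, 2.42% of those of lower genes and 2.55% of all windows tested, and in 1 of the 3 higher members of the list with a window.

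GPNMB led the 15 largest rises among genes above 1 log2 CPM. LMO1, a LIM-domain transcription regulator, followed with 3.99, 3.86 and 5.63 CPM against 2.24, 2.28 and 2.25 CPM (0.99 ± 0.24, adjusted p = 0.018, edgeR). FYB1, an adaptor gene (0.91), NPHS1, which encodes nephrin (0.90), ACSBG1, an acyl-CoA synthetase (0.88), GSTA4, a glutathione transferase (0.87), SELENOP, a selenium carrier (0.80), and LGR6, an R-spondin receptor (0.74), came after it. SOCS2, SPP1, NID1, KANK4, PTAFR, MYOM2 and HLA-DRA differed by 0.65 to 0.70. Of these HLA-DRA, an MHC class II gene, had 10.7, 10.6 and 12.8 CPM against 7.79, 5.23 and 8.89 CPM (0.65 ± 0.12, adjusted p = 0.0022, edgeR). The gap of HLA-DRA was widest in pair 2, the pair in which differences went with gene length. None of 10 measured MHC class I genes passed. An unadjusted p below 0.05 was found for 7 of the 10, and for 4056 of the 19815 genes tested (edgeR). Above 0 lay 9 of the 10, with a median of 0.22. The median was 0.08 for Tra+Afa against cetuximab.

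HMOX1, heme oxygenase 1, and NQO1, a quinone reductase, were named after their values were seen. HMOX1 had 24.9, 34.2 and 25.8 CPM with afatinib and 22.2, 17.5 and 18.5 CPM with cetuximab, 0.53 ± 0.10 (adjusted p = 0.0014, edgeR). NQO1 had overlapping ranges and was 0.32 higher (adjusted p = 0.039, edgeR). Among 21 measured ATF4 target genes 3 were higher and none lower, where 1.21% of all genes tested were higher. The 3 were DDIT4 (0.48), a stress-induced inhibitor of mTORC1, PHGDH (0.25) of serine synthesis and ASNS (0.21), asparagine synthetase. Without the block none of the 21 passed, without each replicate in turn 1 member was higher, and none passed for Tra+Afa against cetuximab. Lists of chemokines (11 measured), interferon-stimulated genes (22), gut differentiation genes (18) and mesenchymal genes (17) had no member that passed.

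Most other lists had few members that passed. Of all genes tested 1.21% were higher and 2.31% lower, and single members that passed are no result about their lists. Without the block no member of the lists in this paragraph passed. Among 11 receptor-level feedback genes PTPRJ, a receptor tyrosine phosphatase, was lower (-0.23), and among 14 Notch pathway genes the ligand JAG2 was lower (-0.22). Among 17 measured BMP and TGF-beta target genes PMEPA1, an inhibitor of SMAD signalling, was lower (-0.41) and ID3, a repressor of basic helix-loop-helix factors, higher (0.48). Among 11 measured matrix metalloproteinases and inhibitors MMP17 was lower (-0.29) and MMP7 higher (0.79). In the metabolic lists ELOVL6 (-0.26) and ACLY (-0.19) of fatty acid synthesis were lower, and SC5D (0.21) of cholesterol synthesis and PFKM (0.32) of glycolysis higher, while MYBBP1A (-0.33) was the only ribosome biogenesis gene of 22 that passed. Of 16 measured keratins KRT16 was higher (0.40) and of 19 measured integrin subunits ITGA9 was lower (-0.47). Among markers of other cell types TP63 of squamous cells (-0.39) and PECAM1 of endothelial cells (-0.42) were lower, each with overlapping ranges, and no gastric epithelial, fibroblast or leukocyte marker passed.

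The group that received trastuzumab plus afatinib held another set of afatinib libraries, compared with the same 3 cetuximab libraries. Here 380 genes (1.92%) passed, 125 higher and 255 lower. ETV5 differed by -1.48, SPRY4 by -1.83, CCND1 by -0.88, TNC by -0.68, IVNS1ABP by -0.68 and GPNMB by 1.04 on the log2 scale. On the ERK list 11 of 28 members were lower and none was higher, with a median of -0.52. These values rest on the same cetuximab libraries as the direct comparison and are not independent of it. No gene passed between Tra+Afa and afatinib alone at 24 h (edgeR), where 1149 genes had an unadjusted p below 0.05. In a fit of the 6 Tra+Afa and cetuximab libraries alone, both of whose replicate 2 libraries stand apart, 3026 genes passed.

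EGF given for 24 h, compared with untreated cells, shares no library with the comparison of the drugs. Of the 458 genes that were lower with afatinib than with cetuximab, EGF against untreated cells raised 258 (56.3%) and lowered 67 (14.6%), where it raised 24.7% and lowered 26.4% of all genes tested. Of the 239 genes that were higher with afatinib, EGF lowered 154 (64.4%) and raised 28 (11.7%). ETV5 rose by 1.11, SPRED1 by 1.08, DUSP4 by 1.61 and CCND1 by 0.96 with EGF on the log2 scale, and GPNMB fell by 1.61, LMO1 by 2.01 and TXNIP by 0.68. Exceptions were EGR1 (-0.66) and FOS (-0.83), which were lower with EGF at 24 h, and IVNS1ABP (-0.58) and SLC1A3 (-1.28), which were lower both with EGF and with afatinib.

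At 4 h no gene passed the test between the drugs (0% of genes tested). The smallest adjusted p was 0.272 and 634 genes had an unadjusted p below 0.05 in edgeR, DESeq2 called 3 genes, and a fit of the 6 libraries alone called 194. Among the 697 genes of the 24 h comparison 551 (79.1%) lay in the same direction at 4 h, against 54.3% of all genes tested. SPRY4 differed by -0.99 ± 0.33 at 4 h, DUSP6 by -0.91, DUSP4 by -0.67, EGR1 by -0.61, F3 by -0.52 and EPHA2 by -0.46, each with an adjusted p above the threshold. The direct test of the difference between 24 h and 4 h called 9 genes (0.0454% of genes tested). ETV5 was the only member of the ERK list among them, with -0.21 at 4 h and -1.53 at 24 h. TNC, IVNS1ABP, SLC1A3, FSTL4, HCN4 and CLDN1 had a lower and SLC6A20 and PROS1 a higher difference at 24 h than at 4 h, and some of these 9 genes were named after their values were seen.

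In Hs746T at 24 h 93 of 18667 genes (0.498%) differed between afatinib and cetuximab, 21 higher and 72 lower, and none by more than 1 on the log2 scale. None of the ERK list passed, and its median was -0.06. ETV5 differed by -0.02 ± 0.04, SPRY4 by 0.01 ± 0.05 and SPRED1 by 0.01 ± 0.05. Other lists did have members that passed in Hs746T. Of the YAP target genes 4 and of the motility genes 5 were lower there and none was higher, with F3 on both lists. In MKN1 4 and 1 members of these lists were lower. Of the 658 MKN1 genes that were also tested in Hs746T 388 (59%) lay in the same direction, against 49.9% of all genes. There were 14 genes called in the same direction in both lines and 1 gene, OSGIN2, called in opposite directions (-0.41 in MKN1, 0.21 in Hs746T).

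The 14 shared genes were named after their values were seen. GPNMB was 0.53 higher in Hs746T, HMOX1 0.44, ASNS 0.35 and PHGDH 0.31. TGFB2 was 0.54 lower, FGFBP1, which encodes a carrier of fibroblast growth factors, 0.52, AMIGO2 0.41, F3 0.38, CPA4 0.38 and CAV1, caveolin 1, 0.34, and smaller falls were seen for PDGFC, CHST15, FRMD6 and PTPRE. The direct test of the difference between the lines called 137 of 21267 genes (0.644%). Of these 56 were among the genes lower and 33 among the genes higher in MKN1, where 2.31% and 1.21% of all genes tested were lower and higher. The test holds the same MKN1 libraries that selected those genes. The overlap therefore partly follows from the selection and is no separate test of them. ETV5, ETV1, SPRY4, DUSP4, SPRED1, SPRED2, CCND1 and EPHA2 were among the 56, and GPNMB, TXNIP, PDK4 and FBXO32 among the 33. For GPNMB the rise was larger in MKN1 than in Hs746T by 0.66.

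**Figure D5:**
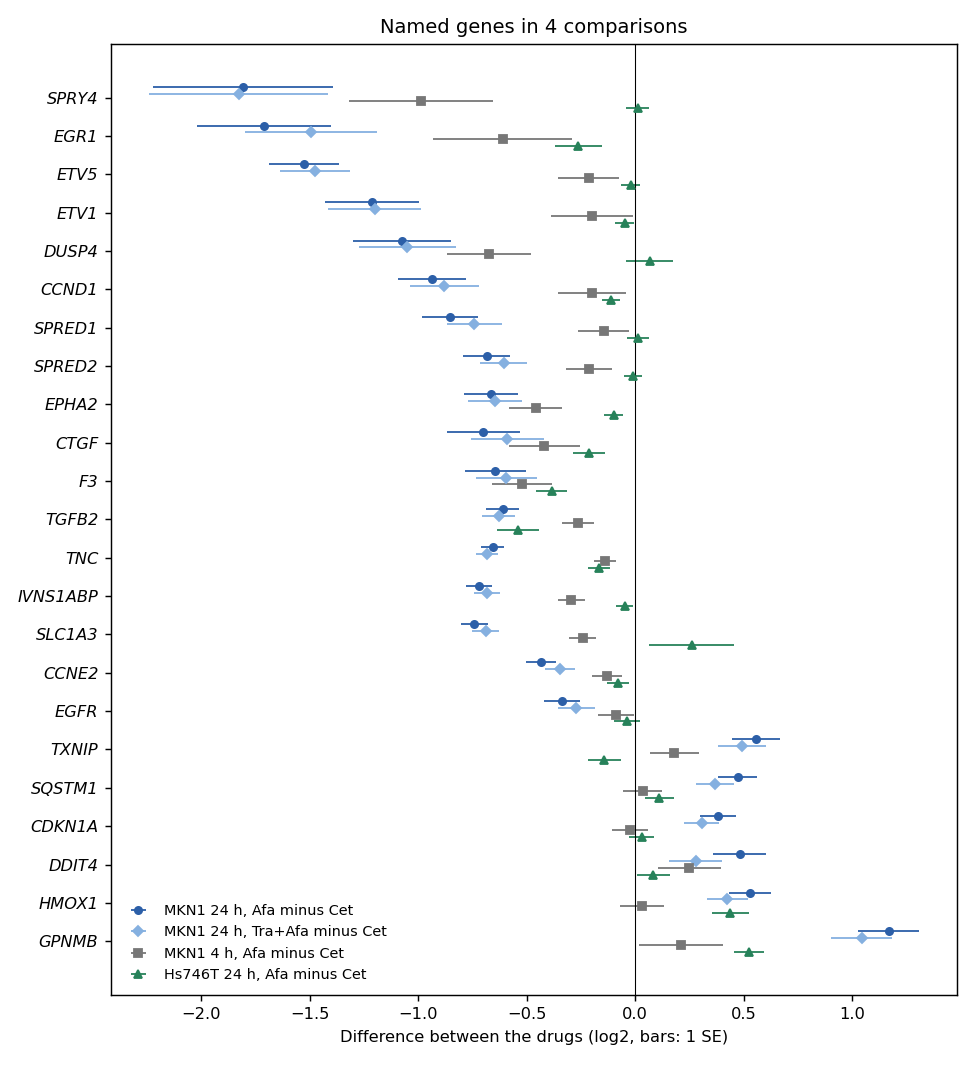
Log2 difference between afatinib and cetuximab with bars of 1 SE (x axis) for 23 named genes (y axis) in MKN1 at 24 h, in MKN1 at 24 h with trastuzumab added to afatinib, in MKN1 at 4 h and in Hs746T at 24 h. ETV5 lies at -1.53, -1.48, -0.21 and -0.02 in these comparisons, and GPNMB at 1.17, 1.04, 0.21 and 0.53.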

How the data were processed

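RNA was measured in 132 libraries by polyA RNA sequencing, with 1 file of raw counts for each. The authors trimmed reads with Trim Galore and aligned them to hg38 with STAR, per the labels, and deposited whole-number counts for 65217 Ensembl gene identifiers; versions and counting settings are not given in the sources used here. Gene names, positions and exon lengths came from GENCODE 29 (GRCh38). The 8404 identifiers without an entry held 0.0422% of counts, and the 37 mitochondrial ones were 0 in every library. The 6 libraries compared held 42367058 to 55323061 counts, all libraries 25832557 to 69434151. No 2 replicates of the same group held identical values (132 pairs compared).

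The 42 MKN1 libraries (14 groups) were fitted together with edgeR 4.0.16 (R 4.3.3). Its filter kept genes with about 10 counts in at least 3 libraries, the size of a group, and 15 in total. The fit used TMM factors, group means, a block for the replicate number within each time point and the quasi-likelihood test. Adjustment was by Benjamini-Hochberg over 19815 genes, with a threshold of 0.05. Log2 CPM used a prior count of 2. By the S numbers in their descriptions, MKN1 replicates 1 and 2 belong to a series of numbers that starts again for replicate 3; what these numbers stand for is not given, and the block covers the split. The replicate number was used as a pair because the comparison is defined by pairs. At 24 h same-numbered afatinib and cetuximab libraries deviated from their group means with correlations of 0.27, -0.02 and 0.35, so that the data alone do not show that the numbers pair the samples. Hs746T was fitted in the same way. The members, gene lists (38) and tests were chosen with earlier results of these data known. Named genes were list members, genes the study names, and the 15 largest rises and 15 largest falls among genes that passed with a mean above 1 log2 CPM and the same direction in all 3 pairs; others are said to be named after their values were seen. Promoter windows (250 bases before to 50 after the start) were RefSeq sequences on GRCh38.p14, matched by symbol for 12179 genes, and searched for 8 motifs on both strands. Alternatives were fits without the block, with a block that ignores time, of the compared libraries alone, other scaling and filters, DESeq2 1.42.0 and leaving out replicates. The tests were tried on simulated data with known changes.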

Additional observations from a re-analysis of the deposited data

Results flagged for a closer look

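The difference between afatinib and cetuximab in MKN1 changed between 4 h and 24 h for 9 genes by the test of the difference itself (edgeR, adjusted p below 0.05). On the log2 scale, as 24 h minus 4 h, it was -1.31 for ETV5, -0.76 for FSTL4, -0.66 for HCN4, -0.54 for CLDN1, -0.52 for TNC, -0.50 for SLC1A3 and -0.43 for IVNS1ABP. It was 0.72 for SLC6A20 and 0.42 for PROS1.

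The same difference at 24 h was not equal in MKN1 and Hs746T for 137 genes. This test holds the MKN1 libraries of the direct comparison, so that it is no separate test of genes that passed there. Among genes of the ERK list it was lower in MKN1, as MKN1 minus Hs746T, by -1.81 for SPRY4, -1.49 for ETV5, -1.16 for ETV1, -1.12 for DUSP4, -0.85 for SPRED1, -0.81 for CCND1, -0.66 for SPRED2 and -0.55 for EPHA2. Other genes with a negative value were AP005233.2 (-1.62), SLC1A3 (-0.98), MYEOV (-0.95), UBASH3B (-0.86), IL7R (-0.77), FSTL4 (-0.75), OSGIN2 (-0.60), IVNS1ABP (-0.66), ITGA9 (-0.66), CYP26B1 (-0.64), BCL2 (-0.62), TNC (-0.48) and CCNE2 (-0.34). Positive values were found for GSTA4 (1.01), SOCS2 (0.81), TXNIP (0.71), HLA-DRA (0.71), GPNMB (0.66), PDK4 (0.57), FBXO32 (0.42), PROS1 (0.36) and PFKM (0.30).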

How the results depend on the processing

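Without the replicate block, 2 genes were higher and 13 lower at 24 h in MKN1 (1 and 3 by more than 1 on the log2 scale), 8 genes passed for Tra+Afa against cetuximab, 0 in Hs746T (251 at an unadjusted p below 0.05), 0 for 24 h against 4 h and 2 between the lines. With a block that ignored time the numbers were 113 higher, 250 lower, 192 for Tra+Afa and 4 for 24 h against 4 h. Over all same-numbered MKN1 libraries at 24 h the correlation of deviations averaged 0.241, with 56 of 63 above 0.1 and a lowest value of -0.0184, and at 4 h all 63 were above 0.1. In fits of the compared libraries alone the numbers were 0 higher and 0 lower (0 and 0 by more than 1), 194 at 4 h, 3026 for Tra+Afa, 39 in Hs746T, 0 for 24 h against 4 h and 6 between the lines.

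DESeq2 gave 431 higher and 781 lower genes (1 higher by more than 1), 3 at 4 h, 661 for Tra+Afa, 182 in Hs746T, 27 for 24 h against 4 h and 379 between the lines. With at least 10 counts in every library there were 408 higher genes, 1 of them by more than 1, and 251 between the lines. Without a filter 4 genes were higher by more than 1 and 15 passed for 24 h against 4 h. Leaving out each replicate in turn gave 10 to 162 higher and 42 to 547 lower genes, 1 to 9 and 5 to 8 by more than 1, 0 to 2 at 4 h, 22 to 390 for Tra+Afa, 7 to 37 in Hs746T, 0 to 3 for 24 h against 4 h and 22 to 32 between the lines.

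Chosen after seeing the data, a fit without the cetuximab and Tra+Afa libraries of replicate 2 gave 116 higher and 274 lower genes, 4 higher by more than 1, and 456 for Tra+Afa. A fit without replicate 2 and without the block gave 0 higher, 0 lower, 0 and 0 by more than 1, 0 for Tra+Afa and 0 for 24 h against 4 h. The causes were not tested. Of the named genes, ERBB3, which did not pass, changed direction, with 0.0184 without replicate 1 and -0.10 without replicate 3. The others kept theirs under these alternatives, which share libraries with the main fit and are no separate test. At 3 libraries per group and 42367058 to 55323061 counts, levels below 0.0542 to 0.0708 CPM, by library size without TMM factors, could not be told from 0.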
